A study of Mus musculus with 18 samples.

Results

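The atrial and ventricular myosin light chains are 4 genes chosen by name: Myl2 and Myl3, the ventricular forms, and Myl4 and Myl7, the atrial forms. All 4 were found by Ensembl gene identifier among the 12048 genes of the deposited tables. The RNA came from cardiomyocytes of mouse hearts sorted by flow cytometry into binucleated (2N) and mononucleated (1N) cells. There were 6 groups of 3 libraries, 18 in all: E18.5 2N and E18.5 1N from embryos, P7 2N and P7 1N from pups, and Adult 2N and Adult 1N. Every group carried the same alleles, Mlc2vcre and R26REYFP, and no group lacked them. Mlc2v is another name for Myl2, so the Cre in all 6 groups is driven by 1 of the genes described here. In the widely used Mlc2v-Cre mouse the Cre sits in the Myl2 gene itself. The sources used here do not say which allele it was, how nuclear number or the yellow protein entered the sort, or the age of the adults.

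A cardiac myosin motor carries a regulatory and an essential light chain on the neck of each heavy chain, where they stiffen the lever arm and, for the regulatory chain, take phosphate from light chain kinases that tune contraction. The regulatory chain is Myl2 in ventricle and Myl7 in atrium, and the essential chain is Myl3 in ventricle and Myl4 in atrium. Myl4 and, early in heart development, Myl7 are also made in embryonic ventricle and decline there as the ventricle matures, while the atrium keeps both.

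The 4 transcripts are paralogs, so reads could be shared between them. The longest run of identical bases in the annotated GENCODE transcripts of each pair is shown, because a read within it would match both exactly. It is written here as the mRNA sense strand in lower case with nothing capitalised.

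Myl3 and Myl4: gaggacttcgtggaggggctgcgggtctt

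Myl2 and Myl7: ttcaaggaagccttca

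The shared run of Myl3 and Myl4 was 29 bases long, in transcripts that were 70.6% identical over their aligned bases. That of Myl2 and Myl7 was 16 bases long, at 65.1% identity. None of the 50-base windows of any of the 4 transcripts (0 of 613 for Myl2, 0 of 888 for Myl3, 0 of 830 for Myl4 and 0 of 541 for Myl7) occurred in a transcript of another gene among 141767 searched. The search was for exact matches, and sharing of reads aligned with mismatches was not tested.

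Promoter windows of a gene that fell with age and of one that did not are shown side by side. The sequences are from RefSeq on build GRCm38.p6, while the deposited values were made on mm9, and the capitals mark matches to the CArG box (the serum response factor element), GATAA (bound by GATA factors) and CATTCC (bound by TEAD factors), searched on both strands. The Myl7 window, chr11:5898783-5899032 on the minus strand, ends at the base before the RefSeq start. The Myl3 window, chr9:110763428-110763645 on the plus strand, ends at the base before the GENCODE start, 32 bases before the RefSeq start.

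Myl7: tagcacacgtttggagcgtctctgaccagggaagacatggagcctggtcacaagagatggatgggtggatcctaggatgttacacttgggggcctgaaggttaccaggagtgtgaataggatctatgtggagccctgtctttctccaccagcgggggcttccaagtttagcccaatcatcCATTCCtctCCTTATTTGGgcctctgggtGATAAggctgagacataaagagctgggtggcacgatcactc

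Myl3: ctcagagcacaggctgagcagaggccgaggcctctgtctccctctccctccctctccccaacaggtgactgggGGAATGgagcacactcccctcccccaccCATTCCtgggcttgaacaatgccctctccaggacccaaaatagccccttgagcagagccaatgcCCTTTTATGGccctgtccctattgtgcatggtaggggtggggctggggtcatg

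Both windows held a CArG box, at -61 to -52 in Myl7 and -85 to -76 in Myl3, counted from the RefSeq start. Of 32851 RefSeq promoter windows of 250 bases, 1.47% held a CArG box, 22.6% GATAA and 12.6% CATTCC. The 32 bases of the Myl3 window that are not printed held a GATAA, at -18 to -14, so both full windows held these 3 motifs. The search also covered CANNTG (N any base), which both held, as did 66.2% of the RefSeq windows. It covered the MEF2 element, TATAAA and GGTGTG too, held by 2.92%, 12.4% and 16.3% of the RefSeq windows and by neither of these. These matches are a description of the letters. The RefSeq windows of Myl2 lie 8227 and 7762 bases before the start of its main transcript and are not shown. That of Myl4 belongs to the first of several annotated starts and held none of these 3 motifs.

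The libraries held 14833334 to 22690952 counts on the listed genes. E18.5 2N replicate 1 stood apart: an array weight, which falls as a library departs from its group, was 0.0494 for it, against 0.563 to 5.53 in the other libraries. In E18.5 2N libraries the summed normalised counts of 8 measured fibroblast markers of 10 ran from 6241 to 17524, against 965 to 1919 in E18.5 1N, and those of 10 endothelial markers ran from 1106 to 2149 against 299 to 638. The part of these cells in the 2N to 1N differences at E18.5 was not tested. Endothelial sums were 1856 to 2223 in Adult 2N and 1628 to 1710 in Adult 1N. At P7 they were 206 to 230 in 2N and 200 to 475 in 1N. Sums of 5 measured leukocyte markers of 9 were 85.0 to 102 in Adult 2N and 116 to 139 in Adult 1N. In P7 2N and P7 1N they were 21.3 or below. Fibroblast sums were 943 or below at P7 and in the adult. The part of these cells in the age changes was not tested either. All 11 measured of 12 cardiomyocyte markers were above 0 in all 18 libraries, with sums of 495832 to 810928. In cell pools, fewer cells of a type and less RNA per cell cannot be told apart. Whether replicates came from separate animals is not in the labels, so a p-value here weighs a difference against a spread that may be technical.

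Myl4 and Myl7, the atrial light chains, were called lower at each age step in both classes. The Myl7 call of the adult against P7 was lost in 3 fits that left out a library in 1N cells, and in 9 in 2N cells. Myl2 and Myl3, the ventricular chains, passed the test in none of the 6 age comparisons of the main fit. Without E18.5 2N replicate 1 both passed as higher in the adult against E18.5 in both classes, and at P7 in 2N cells. After quantile normalization both passed as lower in the adult against E18.5 in both classes. The values here are normalised read counts, meaning the whole read counts recovered from the deposited log2 values and scaled by the authors' library factor to a common library. At E18.5 all 4 genes ranked among the 937 highest of 12048 by mean count, while by adulthood Myl7 ranked 11538 in 2N cells and 10521 in 1N cells.

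Myl7, the atrial regulatory chain, had 7699, 3701 and 3688 normalised counts in E18.5 2N libraries, against 3655, 3938 and 3288 in E18.5 1N. At P7 it had 29.1, 27.4 and 71.5 in 2N, against 56.7, 57.3 and 483 in 1N. In the adult it had 2.27, 11.5 and 5.52 in 2N, against 2.11, 86.3 and 11.8 in 1N. Every P7 and adult library lay below every E18.5 library, as it did for 21.4% of all genes at P7 and 30.3% in the adult in 2N cells, and for 22.7% and 34.5% in 1N cells. In addition, 1 library in each of the later 1N groups was far above its 2 fellows: P7 1N replicate 3 and Adult 1N replicate 2. The adult 2N values rest on 16 reads in all (95% Poisson interval 9.15 to 26.0), and those of adult 1N on 77 (60.8 to 96.2), and these intervals cover counting error only.

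Myl4, the atrial essential chain, had 15698, 6242 and 5426 normalised counts in E18.5 2N, against 7235, 6728 and 4855 in E18.5 1N. At P7 it had 313, 420 and 316 in 2N, against 445, 459 and 667 in 1N. In adults it had 22.7, 38.4 and 46.4 in 2N, against 51.7, 93.0 and 61.2 in 1N. The 3 ages did not overlap in either class. Adult libraries lay wholly below P7 libraries for 31.5% of all genes in 2N cells and 30.2% in 1N cells. Its libraries spread less than those of Myl7, with an SD of log2 values of 0.24 and 0.33 at P7 in 2N and 1N, against 0.76 and 1.77 for Myl7.

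Myl2, the ventricular regulatory chain, had 50954, 23797 and 23606 normalised counts in E18.5 2N, against 26928, 25339 and 26267 in E18.5 1N. At P7 it had 35592, 36707 and 33104 in 2N, against 26414, 30947 and 33211 in 1N. In adults it had 31760, 33528 and 30625 in 2N, against 27687, 35576 and 32438 in 1N. The first E18.5 2N library, the one that stands apart, held the highest value of all 18, and the classes overlapped at each age.

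Myl3, the ventricular essential chain, had 82436, 43262 and 44777 normalised counts in E18.5 2N, against 48411, 45221 and 48605 in E18.5 1N. At P7 it had 70499, 70493 and 72091 in 2N, against 52632, 60452 and 69544 in 1N. Adult libraries had 67557, 69120 and 61624 in 2N, against 59184, 70789 and 63436 in 1N. At P7 every 2N library lay above every 1N library. The summed cardiomyocyte markers also did, with 673237 to 723912 in P7 2N, against 565770 to 605151 in P7 1N, and their part in this was not tested. Myl3 ranked between 9 and 23 of the 12048 genes by mean count in all 6 groups and Myl2 between 28 and 94.

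**Figure D1:**
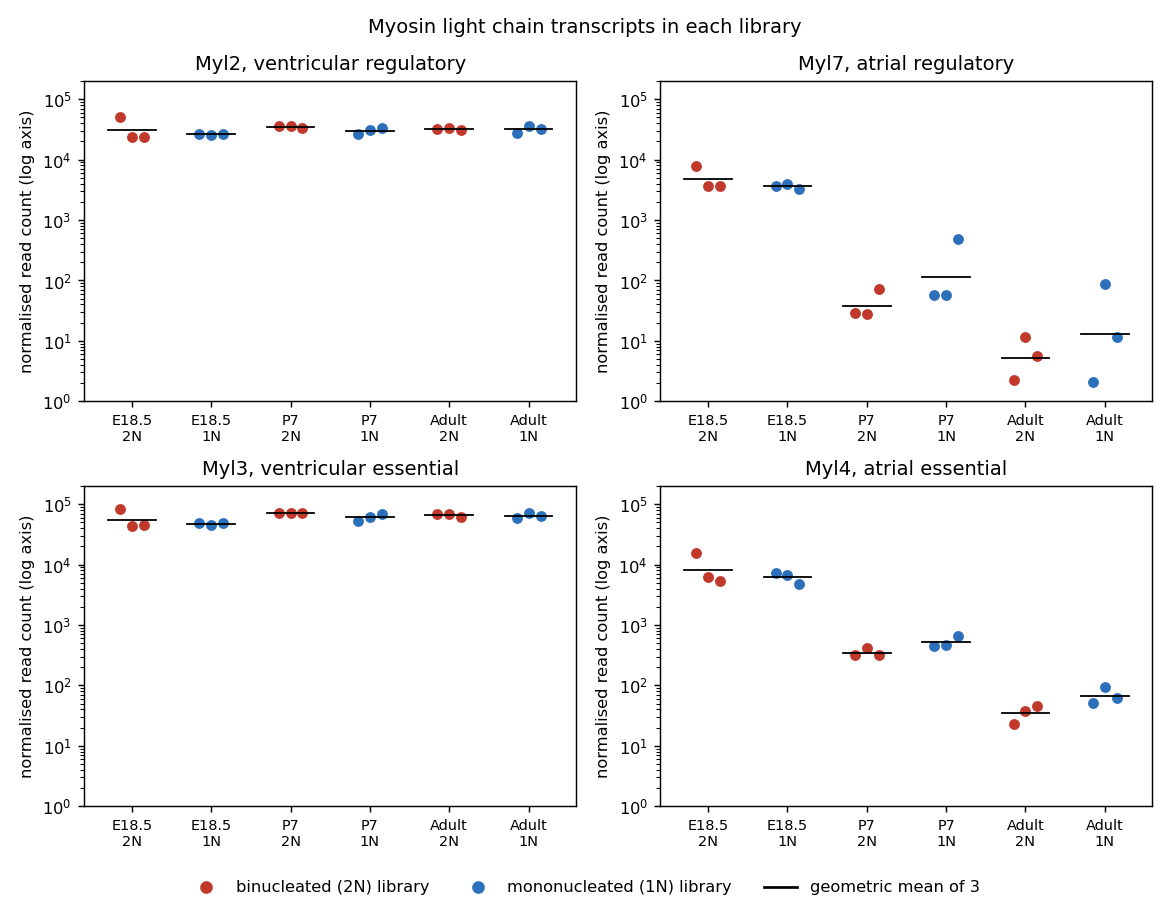
Normalised read counts (log axis) of Myl2, Myl7, Myl3 and Myl4 in each of 18 libraries, 3 per group, with the geometric mean of a group as a black line. Myl4 and Myl7 lie at 3288 or above in every E18.5 library and at 93.0 or below in every adult library, while Myl2 and Myl3 stay between 23606 and 82436.

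Each age comparison asks how the light chains differ between stages within 1 nuclear class, with limma fitted to all 12048 genes and all 18 libraries, and the adjusted p-values below are its Benjamini-Hochberg values. From E18.5 to P7, 2 of the 4 genes passed in each class, both lower, where 17.7% of all genes were called lower in 2N cells and 7.84% in 1N cells. Myl7 fell by 6.92 on the log2 scale (SE 0.99, adjusted p = 6.36e-05) in 2N cells, a level 121-fold lower (95% interval 28.0 to 520). In 1N cells it fell by 4.95 (SE 0.99, adjusted p = 0.0021), 31.0-fold lower. The SE of a gene here comes from a spread pooled over all groups, not from the 2 groups compared. For Myl7 the SD of log2 values ran from 0.13 in E18.5 1N to 2.53 in Adult 1N. Myl4 fell by 4.55 (SE 0.36, adjusted p = 1.13e-07) in 2N cells, 23.4-fold lower. In 1N cells it fell by 3.59 (SE 0.36, adjusted p = 2.41e-06). In the order of change over all genes, Myl7 was the 8th lowest of 12048 in 2N cells and the 16th lowest in 1N cells.

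From P7 to adulthood the same 2 genes passed in each class, where 19.7% of genes were called lower in 2N cells and 22.3% in 1N cells. Myl4 fell by 3.31 (SE 0.36, adjusted p = 2.08e-06) in 2N cells, 9.93-fold lower. In 1N cells it fell by 2.94 (SE 0.36, adjusted p = 5.98e-06), 7.67-fold lower. Myl7 fell by 2.72 (SE 0.99, adjusted p = 0.0415) in 2N cells, 6.58-fold lower, and by 3.05 (SE 0.99, adjusted p = 0.0215) in 1N cells, 8.26-fold lower. The adult and P7 libraries of Myl7 overlapped in 1N cells and not in 2N cells. The Myl7 call in 1N cells was lost without P7 1N replicate 3 (adjusted p = 0.13), Adult 1N replicate 1 (0.134) or Adult 1N replicate 3 (0.058), with voom weights (0.0728), with the groups of the contrast alone (0.0681) and after quantile normalization (-2.42, adjusted p = 0.0526). That in 2N cells was lost when any 1 of 9 libraries was left out, with adjusted p up to 0.156 without Adult 2N replicate 1, and it was also lost with voom weights (0.247), without a trend (0.058) and after quantile normalization (-2.09, adjusted p = 0.102). After quantile normalization Myl2 and Myl3 passed as lower in this step, at -0.57 (adjusted p = 0.0105) and -0.48 (0.0218) in 2N cells and at -0.51 (0.0171) and -0.45 (0.0266) in 1N cells.

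Over the whole span, the adult against E18.5, 29.4% of genes were called lower in 2N cells and 27.7% in 1N cells, and again both atrial chains passed. Myl7 fell by 9.63 (SE 0.99, adjusted p = 4.42e-07) in 2N cells, 794-fold lower (95% interval 184 to 3423). In 1N cells it changed by -8.0 (SE 0.99, adjusted p = 4.27e-06), 256-fold lower. Myl4 fell by 7.86 (SE 0.36, adjusted p = 2.73e-11) in 2N cells, 232-fold lower. In 1N cells it fell by 6.53 (SE 0.36, adjusted p = 3.24e-10), 92.2-fold lower (95% interval 54.5 to 156). These folds are on the scale of log2 of a count plus 0.5, which understates the change of a gene with a few counts. The comparisons share libraries, the P7 group standing in 2 of the 3 steps of a class and the E18.5 and adult groups in 2 each.

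For Myl2 and Myl3 the age changes lay between -0.14 and 0.44 on the log2 scale, and none passed. The largest was Myl3 in 1N cells, the adult against E18.5, at 0.44 (95% interval 0.04 to 0.84, adjusted p = 0.0581). Its direction depended on the scaling: it was -0.40 after quantile normalization (adjusted p = 0.0374) and -0.35 relative to cardiomyocyte core genes. Without E18.5 2N replicate 1 both genes passed as higher at P7 than at E18.5 in 2N cells, Myl2 by 0.57 (adjusted p = 0.000465) and Myl3 by 0.69 (adjusted p = 7.6e-05). Without it they also passed in the adult against E18.5 in 2N cells, by 0.43 (adjusted p = 0.00197) and 0.58 (adjusted p = 0.000133), and in 1N cells, by 0.28 (adjusted p = 0.016) and 0.44 (adjusted p = 0.000599). With all libraries, the direction in 2N cells turned under quantile normalization, where Myl2 was at -0.76 (adjusted p = 0.000696) and Myl3 at -0.68 (adjusted p = 0.00113) in the adult against E18.5.

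**Figure D2:**
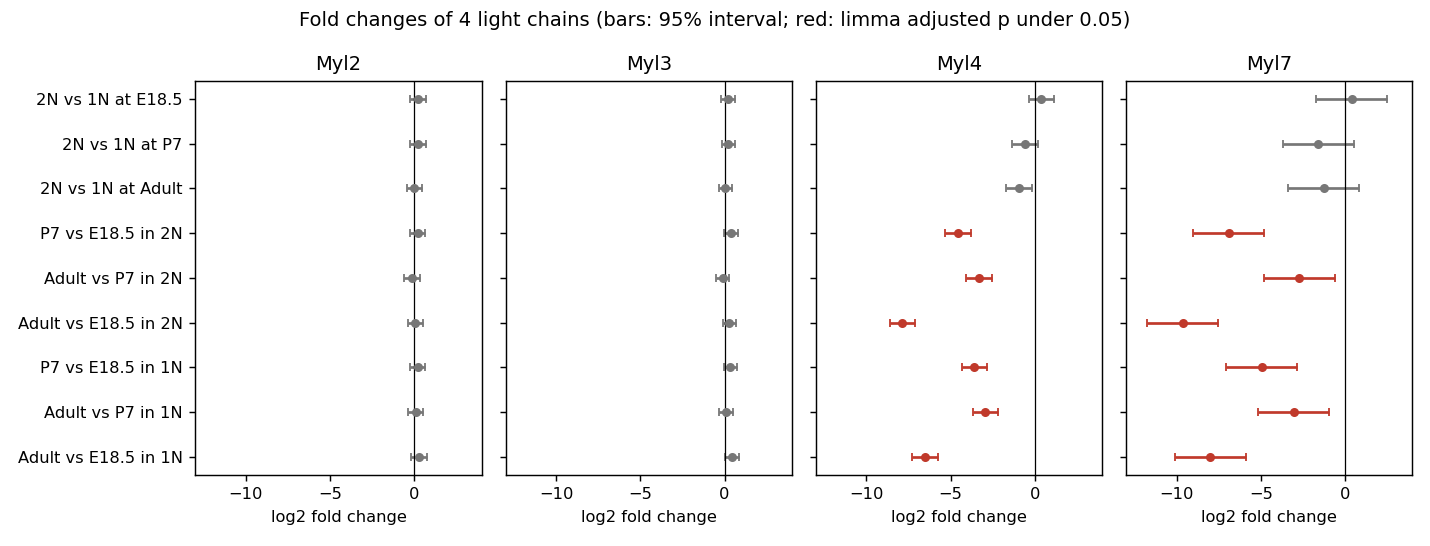
Log2 fold changes of Myl2, Myl3, Myl4 and Myl7 in 9 comparisons, with 95% intervals; red marks a limma adjusted p under 0.05. Myl4 and Myl7 are red and below 0 in all 6 age comparisons, and no gene is red in the 3 comparisons of 2N with 1N.

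The comparison of 2N with 1N cells asks whether nuclear class goes with the level of a light chain at one age. None of the 4 genes passed at any age. At E18.5, where 0.805% of all genes were called in either direction and 14% did not overlap, the classes overlapped for all 4 and the differences were 0.23 for Myl2, 0.20 for Myl3, 0.39 for Myl4 and 0.38 for Myl7, with adjusted p from 0.579 to 0.852. Without E18.5 2N replicate 1 those of Myl2, Myl3 and Myl4 turned to -0.14, -0.11 and -0.09. At P7, where 2.12% were called, Myl4 was at -0.57 (SE 0.36, adjusted p = 0.725) and Myl7 at -1.58 (SE 0.99, adjusted p = 0.726). Myl3 lay higher in all 3 of the 2N libraries than in any 1N library, as did 9.84% of all genes, and Myl4 lower, as did 14.7%. In the adult, where 0.0913% were called, Myl4 was at -0.94 (95% interval -1.70 to -0.18, adjusted p = 1.00) and Myl7 at -1.25 (-3.36 to 0.85, adjusted p = 1.00), which turned to 0.06 without Adult 1N replicate 2. Myl4 again did not overlap between the classes, lower in 2N, where 3.74% of all genes did so in that direction. The difference of the age changes between the classes did not pass either for any of the 4, with 2.33%, 0.208% and 0.158% of all genes called for the 3 steps, the largest for Myl7 at -1.96 (SE 1.41) from E18.5 to P7.

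The ratios of atrial to ventricular chain within a library need no scaling between libraries and were taken per transcript length, as the level of the atrial form in percent of the ventricular one. The Myl7 to Myl2 ratio was 17.0%, 17.4% and 17.5% in E18.5 2N libraries, against 15.2%, 17.4% and 14.04% in E18.5 1N. At P7 it was 0.0917%, 0.0838% and 0.242% in 2N, against 0.241%, 0.208% and 1.63% in 1N. In adults it was 0.00802%, 0.0386% and 0.0202% in 2N, against 0.00855%, 0.272% and 0.0407% in 1N. The E18.5 2N libraries, replicate 1 included, averaged 17.3% ± 0.312 (SD, n = 3), while the adult 1N mean of 0.107% ± 0.144 was decided by replicate 2.

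The Myl4 to Myl3 ratio was 20.3%, 15.4% and 12.9% in E18.5 2N, against 15.9%, 15.9% and 10.6% in E18.5 1N. At P7 it was 0.474%, 0.635% and 0.467% in 2N, against 0.901%, 0.809% and 1.02% in 1N. In adults it was 0.0358%, 0.0593% and 0.0802% in 2N, against 0.0931%, 0.140% and 0.103% in 1N. The means were 0.525% ± 0.0947 in 2N and 0.911% ± 0.108 in 1N at P7 (SD, n = 3 each). In the adult they were 0.0584% ± 0.0222 in 2N and 0.112% ± 0.0248 in 1N. All 3 of the 2N libraries lay below all 3 of the 1N libraries at P7 and in the adult, and the classes overlapped at E18.5.

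**Figure D3:**
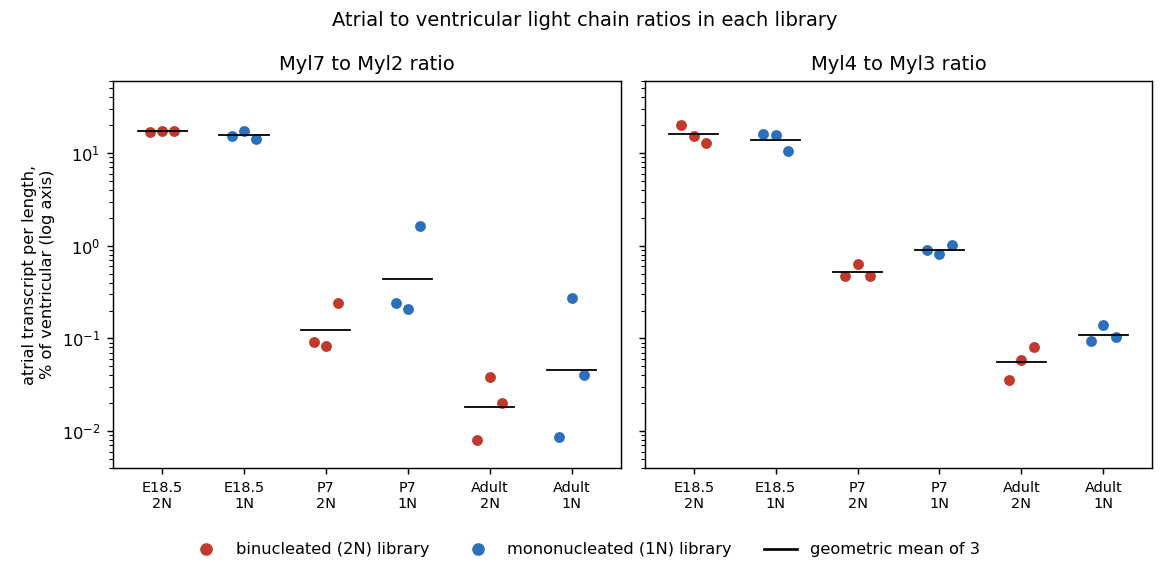
Myl7 to Myl2 and Myl4 to Myl3 ratios per transcript length, in percent (log axis), for each library of the 6 groups, with the geometric mean as a line. The Myl4 to Myl3 ratio of every P7 and adult 2N library lies below that of every 1N library of the same age, and 1 library each of P7 1N and Adult 1N lifts the Myl7 to Myl2 ratio.

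The ratio differences were tested by exact two-sided permutation of the libraries within class or age, 14 tests in all, with p-values adjusted over the 14 by Benjamini-Hochberg. The Myl4 to Myl3 ratio differed between each pair of ages by -4.44, -3.12 and -7.55 on the log2 scale for P7 against E18.5, adult against P7 and adult against E18.5 (each exact p = 0.005, the smallest possible, adjusted 0.014). The Myl7 to Myl2 ratio differed by -6.13 and -8.99 for P7 and the adult against E18.5 (each exact p = 0.005, adjusted 0.014). For the adult against P7 it differed by -2.85 (exact p = 0.015, adjusted 0.035), a call lost without P7 1N replicate 1, 2 or 3, P7 2N replicate 3 or Adult 1N replicate 1, with -3.12 to -2.30 and adjusted p up to 0.07.

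Within an age, 3 libraries against 3 cannot reach an exact p below 0.1. The difference of 2N from 1N in the Myl4 to Myl3 ratio was -0.80 at P7 and -0.98 in the adult (each exact p = 0.1, adjusted 0.156), and 0.19 at E18.5 (exact p = 0.6). Over the 3 ages it was -0.53, that is 1.44-fold lower in 2N cells (exact permutation p = 0.0218, adjusted 0.0435), and this call was lost in 14 of 18 analyses that left out 1 library, with a difference of -0.62 to -0.43. The call was also lost with the replicate numbers as pairs over the 3 ages, where the exact sign-flip p was 0.0469 and 0.0938 when adjusted over the 14. With only the P7 and adult pairs, a subset chosen after seeing the data, the difference was -0.89. The ratio was lower in 2N in 6 of 6 pairs (exact sign-flip p = 0.0313, the smallest possible, adjusted 0.0625). The Myl7 to Myl2 ratio differed by -0.97 over the ages (exact permutation p = 0.154, adjusted 0.216; paired, exact sign-flip p = 0.0547, adjusted 0.0957). It was lower in 2N in 3 of 3 same-numbered pairs at P7 and 3 of 3 in the adult, and in 0 of 3 at E18.5. In the first adult pair each library had 2 Myl7 reads, and normalised Myl7 was higher in 2N, at 2.27 against 2.11. Over the 6 pairs at P7 and in the adult, that pair included, the ratio differed by -1.53 (exact sign-flip p = 0.0313, the smallest possible, adjusted 0.0547).

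Among themselves the chains kept the order Myl3 above Myl2 per length, in every library. The Myl3 to Myl2 ratio per length was 1.14 to 1.34 in E18.5 2N, against 1.26 to 1.31 in E18.5 1N. It was 1.36 to 1.54 in P7 2N, against 1.38 to 1.48 in P7 1N, and averaged 1.46 ± 0.0407 in Adult 2N, against 1.43 ± 0.0683 in Adult 1N (SD, n = 3 each). The sum of essential over that of regulatory chains, both forms together, was 1.24 ± 0.0586 in E18.5 2N and 1.46 ± 0.0405 in Adult 2N (SD, n = 3 each), against 1.26 ± 0.0175 in E18.5 1N and 1.43 ± 0.0691 in Adult 1N. The Myl4 to Myl7 ratio per length was near 1 at E18.5, 1.16 ± 0.192 in 2N and 1.16 ± 0.169 in 1N. It was 6.82 ± 3.67 in P7 2N, against 3.85 ± 2.53 in P7 1N, and 4.86 ± 2.34 in Adult 2N, against 6.89 ± 8.39 in Adult 1N. The adult 1N libraries had 16.4, 0.723 and 3.49, resting on 2, 65 and 10 Myl7 reads, and those of adult 2N rest on 2, 9 and 5.

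As a description over the 18 libraries, with depth and group shared by all, the deposited log2 values of Myl2 correlated most with Cox6b1 (r = 0.992), Uqcrh (0.987) and Atp5k (0.986), subunits of the respiratory chain and of ATP synthase. Myl2 was at 18.1 in E18.5 2N replicate 1, the library that stands apart, against 17.0 to 17.6 in the others. That library therefore weighs much in the correlations of Myl2. Myl3 correlated most with Ndufb11 (0.979), Atp5o (0.972) and Ndufa1 (0.972). Myl4 correlated most with Vim, an intermediate filament gene (0.991), Cfl1, an actin-severing gene (0.989), and 1700037H04Rik (0.988). Myl7 correlated most with Seh1l (0.976), Erg28 (0.970) and Slc1a5 (0.966). Myl2 and Myl3 correlated at 0.924, Myl4 and Myl7 at 0.963, and Myl4 was the 5th gene by likeness to Myl7.

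Other atrial genes did not all go with the atrial light chains. In 15 measured of 18 atrial markers, 4 were lower at P7 in 2N cells than in 1N cells and none higher, where 2.06% of all genes were called lower and the median change was -0.49, against 0.02 over all genes. They were Bmp10, a trabecular growth factor (-4.50, SE 0.71, adjusted p = 0.00174), Gja5, connexin 40 (-2.95, SE 0.45, adjusted p = 0.00148), Stard10 and Myl1. From E18.5 to P7 Gja5 rose by 2.01 (SE 0.45, adjusted p = 0.00507) in 1N cells, while Myl4 and Myl7 fell. Gja5 is also on the list of conduction genes. In that step 6 of the 15 were called higher and 3 lower in 1N cells, against 10.7% and 7.84% of all genes. In 2N cells 2 were higher and 4 lower, against 18.2% and 17.7%. For the adult against E18.5, 4 were higher and 6 lower in 2N cells, against 28.3% and 29.4%. In 1N cells 6 were higher and 5 lower, against 26.2% and 27.7%. Sln, sarcolipin, a brake on the calcium pump, had 0, 1.19 and 2.17 normalised counts in P7 2N libraries, against 3.34, 3.58 and 26.8 in P7 1N. Adult libraries had 0, 2.56 and 1.10 in 2N, against 0, 57.1 and 20.0 in 1N. The libraries with high Myl7, P7 1N replicate 3 and Adult 1N replicate 2, also held the highest Sln of their groups. In the summed counts of atrial markers, where abundant genes weigh most, they were not the highest. P7 1N replicate 3 had the lowest marker sum of its group, 22198 against 30990 and 26480. Adult 1N replicate 2 had the middle one, 36399 against 39060 and 29289. P7 1N replicate 3 also had the lowest Mybphl, Kcnj3, Dkk3 and Myl1 of its group, and the middle Gja5, Tbx5 and Bmp10. Of its group, Adult 1N replicate 2 had the highest Mybphl, Dkk3, Tbx5 and Myl1, the middle Gja5 and the lowest Kcnj3. Adult 1N replicate 2 held the highest Nppa, the atrial natriuretic peptide, of its group, at 628 against 91.8 and 311, and P7 1N replicate 3 did not, at 1109 against 1117 and 2502. The summed atrial markers ran from 14025 to 23113 in P7 2N, against 22198 to 30990 in P7 1N, and from 28508 to 37207 in Adult 2N, against 29289 to 39060 in Adult 1N. Mybphl, a myosin-binding protein of atrium, is plotted beside them and was chosen after its values were seen. Bmp10 was at 0 in every adult library. The part of atrial cells in these differences was not tested.

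**Figure D4:**
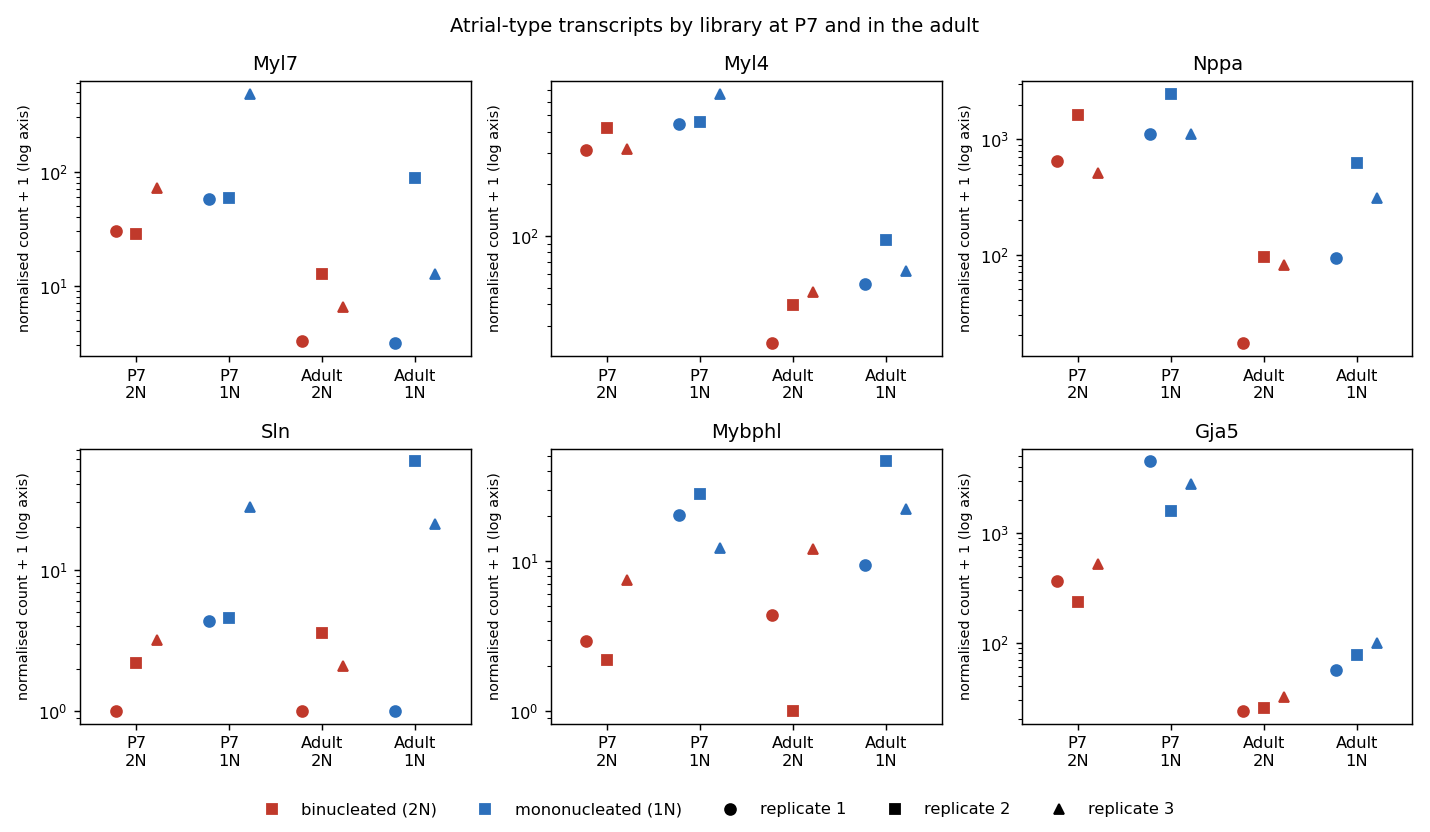
Normalised counts plus 1 (log axis) of Myl7, Myl4, Nppa, Sln, Mybphl and Gja5 in each library at P7 and in the adult, the symbol giving the replicate. Adult 1N replicate 2 is the highest of its group for Myl7, Myl4, Nppa, Sln and Mybphl, and P7 1N replicate 3 for Myl7, Myl4 and Sln.

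The other light chains and the enzymes that act on the regulatory chain changed in their own ways. Of 6 measured of 9 other light chains, 4 were lower at P7 than at E18.5 in 2N cells and 2 in 1N cells, where 1 was higher. Of all genes 17.7% were called lower in 2N cells in that step, and 7.84% lower and 10.7% higher in 1N cells. Myl9, the smooth muscle regulatory chain, fell by 4.99 (SE 0.21, adjusted p = 9.2e-12) in 2N cells from E18.5 to adulthood. In 1N cells Myl9 fell by 4.30 (SE 0.21, adjusted p = 7.06e-11). Myl6, the non-muscle essential chain, changed by -2.60 in 2N cells and by -2.31 in 1N cells (adjusted p = 2.54e-08 and 1.27e-07). Myl12a, a non-muscle regulatory chain, rose by 1.17 in 2N cells and by 1.44 in 1N cells (adjusted p = 0.000173 and 2.64e-05), calls lost relative to cardiomyocyte core genes (0.414 and 0.0603). Myl1, the skeletal essential chain, was the 1 light chain of these that passed between classes: at P7 the difference was -1.55 (SE 0.25, adjusted p = 0.00189), with 886 ± 177 normalised counts in 2N and 2584 ± 363 in 1N. Its change from E18.5 to P7 differed between the classes by -1.74 (SE 0.35, adjusted p = 0.0132).

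Of 14 measured of 15 light chain kinase, phosphatase and calmodulin genes, 7 were higher and 1 lower at P7 than at E18.5 in 2N cells, and 3 higher and 1 lower in 1N cells. Of all genes 18.2% were called higher and 17.7% lower in 2N cells, and 10.7% higher and 7.84% lower in 1N cells. From E18.5 to adulthood 6 of the 14 were higher and 2 lower in 2N cells, against 28.3% and 29.4% of all genes. In 1N cells 5 were higher and 2 lower, against 26.2% and 27.7% of all genes. Mylk4, a kinase of this family, rose by 8.08 (SE 0.77, adjusted p = 1.6e-07) in 2N cells and by 6.07 (SE 0.77, adjusted p = 5.01e-06) in 1N cells from E18.5 to adulthood, with 1745 ± 59.7 normalised counts in Adult 2N and 1771 ± 171 in Adult 1N, against 14.1 ± 20.6 in E18.5 2N and 32.5 ± 24.7 in E18.5 1N. Mylk3, the cardiac light chain kinase, rose by 1.42 (SE 0.24, adjusted p = 8.77e-05) in 2N cells and by 0.96 (adjusted p = 0.00283) in 1N cells; the calls were lost relative to cardiomyocyte core genes and after quantile normalization, and in 1N cells also under scaling by the listed total. Ppp1r12a, a myosin phosphatase targeting subunit, changed by -1.47 in 2N cells and by -1.36 in 1N cells over the same span (adjusted p = 1.44e-08 and 4.16e-08).

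**Figure D5:**
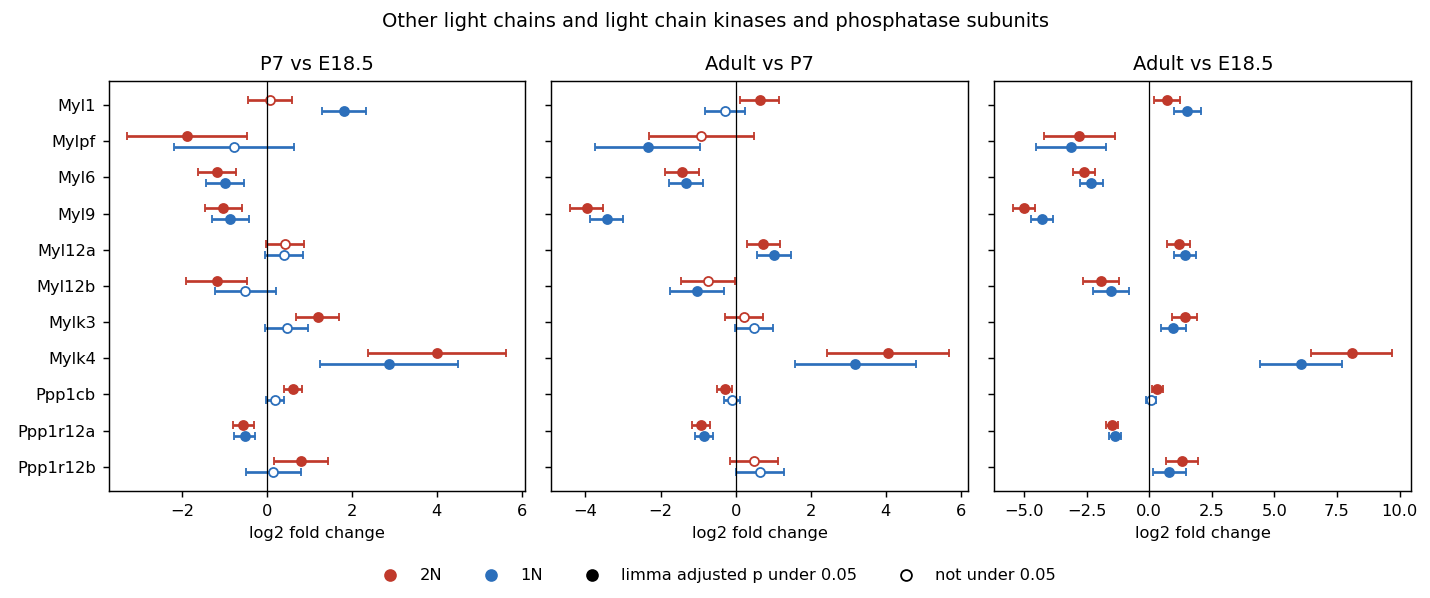
Log2 fold changes with 95% intervals of 6 other light chains, 2 kinases and 3 phosphatase genes in the 3 age comparisons, 2N in red and 1N in blue, filled where the limma adjusted p is under 0.05. Myl9 and Myl6 are below 0 and Mylk4 above 0 in all 3 panels, in both classes.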

How the data were processed

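RNA from sorted cardiomyocytes was sequenced in 18 libraries. Per the labels' protocols, cells were collected in Trizol-LS, RNA was taken up by phenol extraction and cleaned with RNeasy micro columns, and libraries came from Illumina TruSeq stranded mRNA and Clontech SMARTer kits. STAR, limma and build mm9 are named in the submitters' processing notes; the sources used here give no versions, counter, annotation or handling of shared reads. The authors deposited log2 values, 12048 genes per library: log2 of a whole count plus 0.5 and a library factor, so counts were recovered (100% within 0.001 of whole). No molecular identifiers are named in the labels, and intervals cover counting error only. Symbols came from a gene name table, where 11927 of 12048 identifiers matched.

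The members, gene lists and tests were chosen with earlier results of these data known. limma 3.58.1 in R 4.3.3 fitted group means to the deposited log2 values, with trend, and Benjamini-Hochberg adjustment at 0.05 within a contrast. Ratios were tested by exact permutation with numpy 2.4.6, and scipy 1.17.1 gave the counting intervals. The named genes were the 4 members, up to 4 genes past the threshold per list and direction, fixed names, and the 3 genes most like each member. Array weights, voom, quantile and total scaling, core genes, groups alone, no trend, a low-value filter and each library left out were tried. Same-numbered libraries deviated together at P7 (r 0.182 to 0.236), in the adult (0.261 to 0.327) and, more weakly, at E18.5 (0.0545 to 0.158). Other-numbered libraries ran from -0.135 to -0.0687 at P7, from -0.210 to -0.0574 in the adult and from -0.0949 to 0.00177 at E18.5. A block was fitted over all libraries and within each age. A block within P7 and adult only was added after seeing the data. It leaves out E18.5, where the mean log2 ratios were higher in 2N. Ratios were also tested by exact sign-flip over pairs of all ages and, added likewise, of P7 and adult only. The scripts were tested on simulated data.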

Additional observations from a re-analysis of the deposited data

How the results depend on the processing

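Of the values of single genes under settings other than leaving out a library, 394 kept their direction and side of the threshold, 14 passed newly, 6 no longer passed and 42 turned; with a library left out the numbers were 818, 9, 12 and 25. Of the 42, 7 passed the threshold in the turned direction: Myl2 and Myl3 after quantile normalization (adult against E18.5, both classes, and adult against P7, 1N) and Myl2 relative to core genes (adult against E18.5, 2N, adjusted p = 0.0245). Of the 25, 0 did. The cause of these changes was not tested. No gene lost its listing to the low-value filter (0 removed), which says nothing of stability, and the pseudocount alternative does not apply to deposited log2 values. In the adult against E18.5 in 2N cells the median change of all genes was -0.43 when scaled by the listed total (2114 genes higher, 5313 lower) and -0.91 relative to core genes (1161 and 7117), against -0.02 as deposited (3409 and 3539).

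By setting, in the order of 2N against 1N, adult against P7, adult against E18.5, P7 against E18.5 and class difference, the turned values were as follows. Array weights gave Myl2 -0.13 (E18.5) and -0.0043 (adult), with class differences of 0.32 and 0.13, Myl3 -0.078 (E18.5) with 0.13, Myl4 -0.14 (E18.5), and Myl7 -0.26 (class difference, adult against P7). Quantile normalization gave Myl2 -0.010 (P7) and -0.069 (adult), -0.51, -0.50 and -0.76 (adult, 1N, 1N and 2N) and -0.19 (P7 against E18.5, 2N). It gave Myl3 -0.011 (adult), -0.45, -0.40 and -0.68 in those adult comparisons, -0.20 (P7 against E18.5, 2N) and -0.25 (class difference). Core genes gave Myl2 -0.10 (P7), -0.11 (adult), -0.54, -0.51, -0.84 and -0.29, and Myl3 -0.095, -0.079, -0.53, -0.35, -0.62 and -0.099 in the same comparisons, with class differences of -0.28 and 0.016. The listed total gave Myl2 -0.0095 (adult), -0.23, -0.11 and -0.35, and Myl3 -0.22 (1N), -0.13 (2N) and -0.068 (class difference). voom gave Myl2 a class difference of 0.011.

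Leaving out a library, the ranges that cross 0 were -0.14 to 0.41 for Myl2, -0.11 to 0.36 for Myl3 and -0.087 to 0.68 for Myl4 between classes at E18.5, and -0.089 to 0.092 for Myl2, -0.022 to 0.11 for Myl3 and -2.46 to 0.058 for Myl7 in the adult. Between ages they were -0.015 to 0.18 and -0.012 to 0.19 for Myl2 and Myl3 (adult against P7, 1N) and -0.12 to 0.43 for Myl2 (adult against E18.5, 2N). The class differences ran from -0.19 to 0.37 and -0.40 to 0.15 for Myl2, -0.13 to 0.34 and -0.32 to 0.14 for Myl3 and -0.88 to 1.64 for Myl7.

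The number of members called changed as follows. It was 4 with array weights (P7 and adult against E18.5, both classes) and with groups alone (adult against E18.5, 1N), Myl2 and Myl3 passing as higher. It was also 4 with quantile normalization (adult against E18.5, both classes), but with Myl2 and Myl3 passing as lower. It was 3 with quantile normalization (adult against P7, both classes, Myl7 lost and Myl2 and Myl3 passing as lower), core genes (adult against E18.5, 2N), voom (adult against E18.5, 1N, Myl3 at 0.44, adjusted p = 0.0486) and groups alone (P7 against E18.5, 1N, Myl3 at 0.35, 0.0462). It was 1 with groups alone and voom (adult against P7, 1N) and with voom and no trend (adult against P7, 2N). With a library left out it ran from 2 to 4, and from 1 to 2 for adult against P7. The Myl4 to Myl3 difference between classes over ages ran from -0.62 to -0.43, and the Myl7 to Myl2 difference of adult against P7 from -3.47 to -2.30. With the replicate block, over all libraries or within P7 and adult only, 0 members passed between classes, and over all libraries 2 passed in each age comparison, as without it; it changed no call of a member. It ended the call of the Myl4 to Myl3 difference between classes, at -0.53 with pairs over the 3 ages (adjusted p = 0.0938) and -0.89 with only the P7 and adult pairs (0.0625), the second chosen after seeing the data. Low counts limit the adult Myl7 values.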

Other observations

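Lists beyond the light chains are given as counts past the limma threshold and medians, beside the median of all genes, with no test of a list. Of 11 measured conduction genes, 10 were higher at P7 than at E18.5 in 1N cells (median 2.11, all genes 0.01) and 4 in 2N cells (median 1.19, all genes 0.03), where 10.7% and 18.2% of all genes were called higher. At P7, 5 of the 11 were lower in 2N cells than in 1N cells (median -2.04, all genes 0.02), among them Gja5, where 2.06% of all genes were called lower. In the adult against E18.5, 28.3% of all genes were called higher and 29.4% lower in 2N cells (median -0.02), and 26.2% and 27.7% in 1N cells (median -0.01). Of 14 measured thick filament genes, 10 were higher and 1 lower in the adult than at E18.5 in 2N cells and 8 and 2 in 1N cells, with Myh6 higher by 1.99 and 1.15 and Myh7 lower by 3.57 and 3.89; the list medians were 1.04 and 0.74. Of 11 measured cardiomyocyte core genes, 9 were higher in 2N cells and 7 in 1N cells in the same comparison (medians 0.74 and 0.47). Of 16 measured other ventricular genes, 7 were higher and 6 lower in 2N cells and 7 and 4 in 1N cells (medians 0.17 and 0.13). Of 20 measured chamber transcription factors, 3 were higher and 8 lower in 2N cells and 5 and 8 in 1N cells (medians -0.27 and -0.23).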
